A study of Mus musculus with 36 samples.

Results

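The genes described here encode 10 antioxidant enzymes and were taken by symbol from a table of 27562 genes. They are the superoxide dismutases Sod1, Sod2 and Sod3, catalase (Cat), the glutathione peroxidases Gpx1 and Gpx4, the peroxiredoxins Prdx1, Prdx5 and Prdx6, and thioredoxin (Txn1). RNA-seq covered lung monocytes and alveolar macrophages (AΦ), sorted from chimeric mice after 4-weeks or 32-weeks of breathing filtered air (FA) or concentrated ambient particles (PM2.5). The values are FPKM, fragments per kilobase of transcript and unit of sequencing depth, a scale already divided by library depth and transcript length. There were 36 libraries in 12 groups of 3, numbered 0, 1 and 2 in the labels.

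All hosts were male C57BL/6J mice carrying the CD45.2 form of the leukocyte antigen, irradiated as young adults with the chest behind lead, treated with busulfan and given marrow of B6.SJL-Ptprca Pepcb/BoyJ donors carrying CD45.1. The lung cells of the host therefore stayed CD45.2 and cells arriving from the marrow were CD45.1. Tissue-resident AΦ (TR-AΦ, CD45.2) were sequenced at 4-weeks and at 32-weeks, and bone marrow-derived AΦ (BM-AΦ, CD45.1) at 32-weeks. Monocytes of 4-weeks were CD45.2 cells. The 32-week monocytes carry the labels Mono1 and Mono2, and are called CD45.1 and CD45.2 monocytes here by analogy with the key for AΦ in the study's supplement, so their origin rests on that reading. Each of these 6 populations was sequenced from 3 FA and 3 PM2.5 exposed mice. The study chose 3 mice for each exposure and time, so cell populations of the same exposure and time can come from the same animals, and the sources used here do not say whether a number marks an animal. Tests between populations treat libraries as independent, and an SD or p-value over 6 libraries of different populations counts libraries, not animals. Every animal had been irradiated and transplanted, the CD45.1 donors are a congenic strain and not only a CD45 variant, and the age of the mice rose with the length of exposure.

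Superoxide dismutases turn superoxide into hydrogen peroxide in different places: Sod1 is the copper-zinc enzyme of the cytosol, Sod2 the manganese enzyme of the mitochondrial matrix, and Sod3 the secreted copper-zinc enzyme that binds the extracellular matrix and is known for its abundance in lung and vessel wall. Hydrogen peroxide is then removed by catalase in peroxisomes, by the selenium-containing glutathione peroxidases, and by peroxiredoxins, whose oxidised cysteines are mostly reduced again by thioredoxin. AΦ work at the air surface and meet inhaled oxidants and particles directly, while monocytes reach the lung from blood.

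The results turn first on the dismutases Sod2 and Sod3, so the first 90 coding bases of each are shown, from GENCODE transcripts of GRCm38, 5′ to 3′ on the coding strand, with the start codon in capitals.
Sod2: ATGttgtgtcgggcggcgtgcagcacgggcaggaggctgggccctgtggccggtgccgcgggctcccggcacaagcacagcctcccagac
Sod3: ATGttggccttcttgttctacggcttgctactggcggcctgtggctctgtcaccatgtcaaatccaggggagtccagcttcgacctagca
Over the whole coding sequences of Sod1, Sod2 and Sod3, of 465, 669 and 756 bases, 0 words of 12 bases were shared between any pair, so reads of a dismutase can be told from those of the others. Gpx1 and Gpx4 belong to the selenoproteins, in which an in-frame TGA is read as selenocysteine at the active site. The window around that codon, in capitals, lies at codon 47 of Gpx1 and codon 129 of the Gpx4 transcript used.
Gpx1: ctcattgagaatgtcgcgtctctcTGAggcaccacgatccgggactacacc
Gpx4: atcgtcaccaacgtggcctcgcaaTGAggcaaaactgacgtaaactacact

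The genes lie apart, on chromosomes 1, 2, 4, 5, 9, 10, 16, 17 and 19 of mm10, with Prdx1 and Txn1 both on chromosome 4. In the coordinates of the files, Sod3 spans chr5:52363791-52371418 on the + strand, Sod2 chr17:13007839-13018119 on the + strand and Sod1 chr16:90220742-90226322 on the + strand. Prdx6, at chr1:161240112-161251219 on the - strand, lies 23.1 Mb from Ptprc, the gene of the CD45 antigen by which host and donor differ. The other loci are Cat at chr2:103453849-103485160 (-), Gpx1 at chr9:108339054-108340343 (+), Gpx4 at chr10:80053488-80056439 (+), Prdx1 at chr4:116685544-116700822 (+), Prdx5 at chr19:6906706-6921808 (-) and Txn1 at chr4:57943373-57956411 (-).

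Some of these genes have copies that could take or give reads. Cut into words of 50 bases, the transcripts of Sod3, Cat and Gpx1 shared no word with any other gene, and those of Prdx6, Sod2 and Txn1 shared 0.28%, 1.62% and 2.5%. Prdx1 shared 8.99%, mostly with the processed pseudogene Gm21399. Sod1 shared 23.1% with the processed pseudogene Gm8566, which the table lists at 18 to 53.3 FPKM in AΦ and 25.3 to 88.3 FPKM in monocytes. Prdx5 shared 24.2% with Trmt112, whose locus it overlaps in the wide span the files give, and Gpx4 shared 51.4%, nearly all with the pseudogene Gpx4-ps2. Values of Sod1, Prdx5 and Gpx4 are uncertain to that extent, and whether the counting used strand is not given in the sources used here.

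The labels of the cells were checked on marker genes. Of 14 AΦ markers 13 were in the table, and their summed level was 6904 to 14468 FPKM in the 18 AΦ libraries against 291 to 1730 FPKM in the 18 monocyte libraries. The 12 monocyte markers summed to 1387 to 4334 FPKM in monocytes against 164 to 459 FPKM in AΦ. Neither sum overlapped between AΦ and monocytes. Within CD45.2 monocytes of 32-weeks, however, the PM2.5 library numbered 1 had more AΦ marker signal (1730 FPKM) than monocyte marker signal (1387 FPKM). Interstitial macrophage markers also exceeded monocyte markers there (3157 FPKM) and in FA libraries 0 (3827 against 1466 FPKM) and 1 (2236 against 1840 FPKM). In the rest of that population they were below. The FPKM of all genes summed to a median of 2113520 in AΦ libraries and 2588080 in monocyte libraries, and no count of reads was analysed, so the precision of counting is unknown. Libraries of the same number resembled each other in part. The AΦ marker sum was highest in the library numbered 2 and lowest in that numbered 0 in 6 of 6 AΦ groups, and 6 red cell markers were highest in number 2 in 8 of 8 groups of 32-weeks (17.7 to 85.8 FPKM, against at most 19.5 FPKM in the others) and lowest in number 2 in 4 of 4 groups of 4-weeks. Results whose call changes with the number as a block in the fit are given with that value.

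Gpx1 stood far above the other members and Sod3 and Gpx4 far below, on the FPKM scale. That scale is per length, which allows levels to be set beside each other where reads are not shared with other genes. The places of Gpx4, Prdx5 and Sod1 are therefore uncertain to the extent given above, and so is the order of Sod3 and Gpx4. In TR-AΦ of 4-weeks the means were Gpx1 722 ± 115, Txn1 115 ± 20.4, Prdx5 111 ± 15.9, Prdx1 63.9 ± 12.2, Cat 57.6 ± 7.42, Sod2 57.0 ± 10.3, Prdx6 23.2 ± 4.75, Sod1 18.3 ± 4.96, Gpx4 3.22 ± 1.13 and Sod3 1.38 ± 1.24 FPKM (SD, n = 6). Txn1 exceeded Prdx5 and Cat exceeded Sod2 in 3 of 6 libraries, and Gpx4 exceeded Sod3 in 4 of 6, so these neighbours did not differ beyond their spread. Sod2 kept its place in TR-AΦ at both times, though at a lower level at 32-weeks, and changed it with time in monocytes. Sod3 changed its place with origin. In TR-AΦ of 32-weeks Sod2, at 26.5 FPKM, was below Prdx1 in 6 of 6 libraries, and Sod3 was below Gpx4 in 6 of 6, whereas in BM-AΦ Sod3, at 11.7 FPKM, was above Gpx4, at 4.04 FPKM, in 6 of 6. In monocytes of 4-weeks the means were Gpx1 1275 ± 164, Prdx5 170 ± 19.7, Prdx6 95.2 ± 8.05, Sod2 80.5 ± 30.4, Txn1 46.0 ± 8.91, Cat 41.5 ± 5.70, Sod1 38.7 ± 5.36, Prdx1 31.6 ± 5.33, Gpx4 2.19 ± 0.57 and Sod3 0.170 ± 0.114 FPKM (SD, n = 6), with Sod2 above Txn1 in 6 of 6 libraries. In both monocyte populations of 32-weeks Sod2 was the seventh, at 29.5 FPKM in CD45.1 and 30.3 FPKM in CD45.2 cells. Among CD45.2 monocytes of 32-weeks Txn1 exceeded Cat, Cat exceeded Sod1 and Sod2 exceeded Prdx1 in 3 of 6 libraries each, so these were not ordered beyond their spread. Gpx1 alone made up 52.1% to 77.7% of the summed level of the 10 genes in a library, and that sum was 0.0288% to 0.0871% of the library's total.

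**Figure D1:**
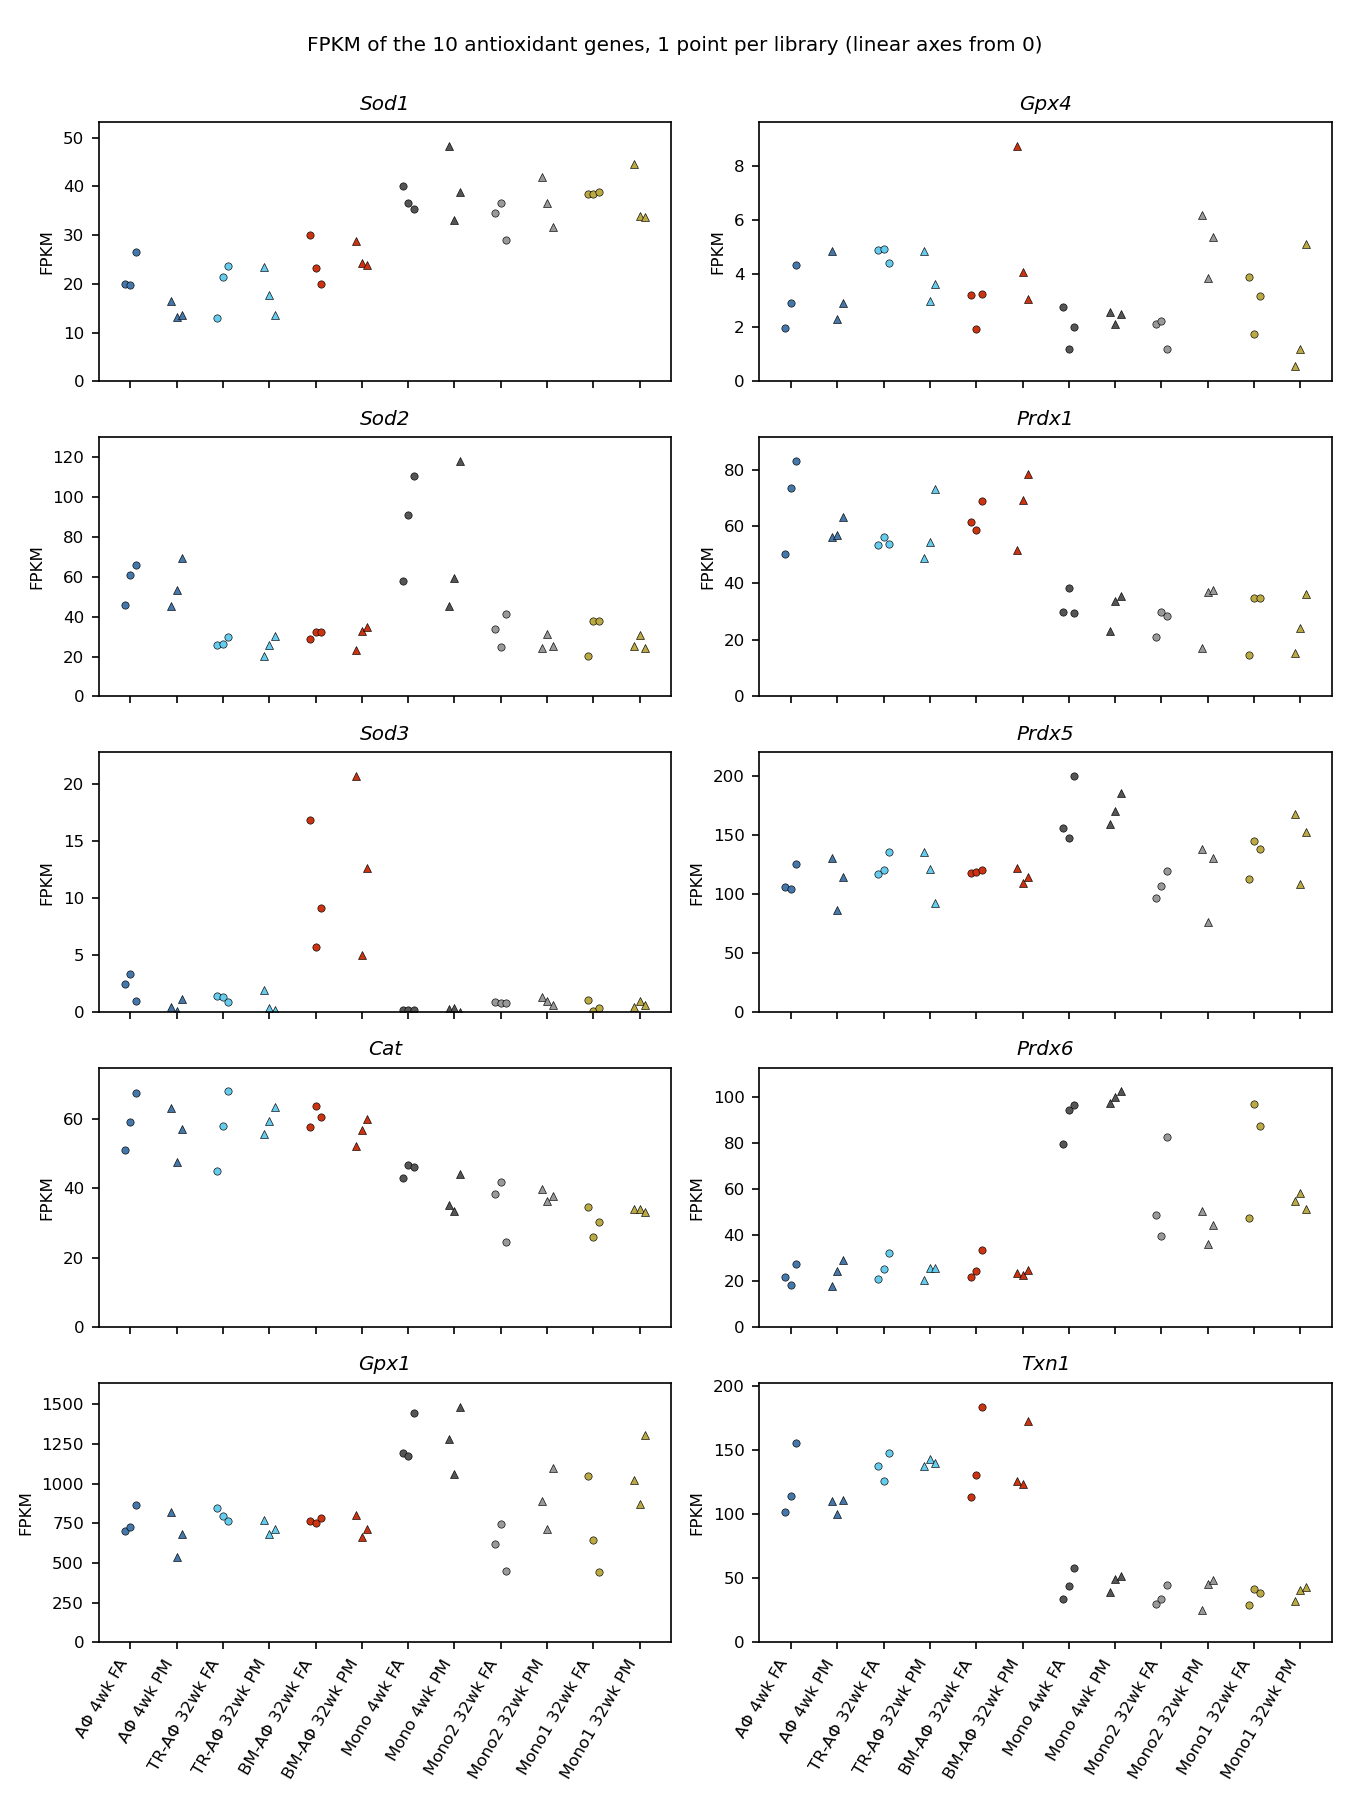
Level of each of the 10 genes in FPKM (y axis, linear from 0, own range per panel) in every library of the 12 groups (x axis), with circles for FA and triangles for PM2.5. Monocyte libraries lie mostly above AΦ for Sod1 and Prdx6 and below AΦ for Txn1, Prdx1 and Cat, and the highest Sod3 values are those of the 6 BM-AΦ libraries.

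Sod3 was higher in marrow-derived than in resident macrophages, by more than the spread between libraries. In BM-AΦ of FA mice it was 16.8, 5.67 and 9.15 FPKM, and in BM-AΦ of PM2.5 mice 20.7, 4.98 and 12.6 FPKM. In TR-AΦ of the same time point it was 1.42, 1.25 and 0.836 FPKM with FA and 1.91, 0.345 and 0.125 FPKM with PM2.5. Every BM-AΦ library was above every TR-AΦ library, in either exposure, and the lowest BM-AΦ library was also above the highest of the 6 TR-AΦ libraries of 4-weeks, 3.33 FPKM.

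The mean of Sod3 was 11.7 ± 6.26 FPKM in BM-AΦ against 0.982 ± 0.677 FPKM in TR-AΦ at 32-weeks (SD, n = 6 each). The log2 fold change of FPKM + 1 was 2.59 (SE 0.355, 95% interval 1.83 to 3.35, adjusted p = 0.0052 by limma with Benjamini-Hochberg adjustment), 6.04-fold on a scale that understates the change of low genes. The exact 2-sided permutation test of the mean of log2(FPKM + 1) gave p = 0.00216, the smallest that 6 against 6 libraries allow. In this comparison 0.316% of the 12665 genes tested passed the threshold (0.134% higher in BM-AΦ), and 1.37% had libraries that did not overlap. Sod3 was 1 of the 10 members to pass. Leaving out any 1 of the 12 libraries gave a log2 fold change of 2.38 to 2.85, past the threshold each time. With the replicate number as a block the same fold change had an adjusted p of 0.0543 by limma, so that the call was lost. Why it was lost was not tested. In both exposures the library numbered 0 of BM-AΦ was the highest for Sod3 and that numbered 1 the lowest. Over all 8 groups of 32-weeks, AΦ and monocytes, number 0 was the highest for Sod3 in 7 and number 1 the lowest in 4. Among the 4 groups of 4-weeks number 0 was the highest in 1.

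The other 9 enzymes did not differ detectably by origin at 32-weeks. Sod1, at 25.0 ± 3.75 FPKM in BM-AΦ and 18.9 ± 4.79 FPKM in TR-AΦ (SD, n = 6), had an unadjusted p of 0.024 and an adjusted p of 0.527 by limma, where 7.45% of genes had an unadjusted p under 0.05. For Cat, Gpx1, Prdx5, Prdx6 and Txn1 the log2 fold changes lay between -0.03 and 0.01, and each interval stayed within 0.33 of 0. The interval was -0.10 to 0.48 for Prdx1, -0.09 to 0.51 for Sod2 and -0.63 to 0.32 for Gpx4.

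Libraries of BM-AΦ also differed from TR-AΦ in markers of other cells. At 32-weeks the 7 interstitial macrophage markers summed to 46.3 to 344 FPKM in BM-AΦ and 24.9 to 79.1 FPKM in TR-AΦ, the 6 dendritic cell markers to 8.93 to 29.8 and 1.46 to 4.86 FPKM, and the 12 monocyte markers to 225 to 459 and 164 to 241 FPKM. In CD45.2 monocytes of 32-weeks the interstitial markers summed to 1006 to 3827 FPKM, the dendritic cell markers to 29.1 to 117 FPKM, and Sod3 was 0.571 to 1.33 FPKM. The 10 lung epithelium markers summed to 73.9 to 200 FPKM in BM-AΦ and 68.7 to 152 FPKM in TR-AΦ at 32-weeks. In BM-AΦ libraries 0, 1 and 2 of FA mice, the dendritic cell sums were 29.8, 8.93 and 13.7 FPKM. With PM2.5 they were 17.3, 13.8 and 17.1 FPKM. These sums and those of lung epithelium had the order of Sod3 in both exposures. Interstitial macrophage and monocyte sums had it with FA only. The part of such cells in the difference was not tested. The 10 fibroblast and smooth muscle markers summed to 0.569 to 2.5 FPKM in BM-AΦ and 0.413 to 2.19 FPKM in TR-AΦ. Of this list, Lum was listed at 0 in all libraries of both and Dcn in all BM-AΦ libraries. None of the other listed genes was at 0 in all libraries of either population. The fibroblast and smooth muscle sum had the order of Sod3 in BM-AΦ with PM2.5 only. The part of these cells in the difference was not tested either. Without the FA library of BM-AΦ with the highest interstitial sum and the TR-AΦ library of the same number, a choice made after the data were seen, the log2 fold change was 2.45 (adjusted p = 0.0285 by limma). In bulk libraries such as these, a change in the share of cells that make a transcript and a change in its amount per cell cannot be told apart.

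**Figure D2:**
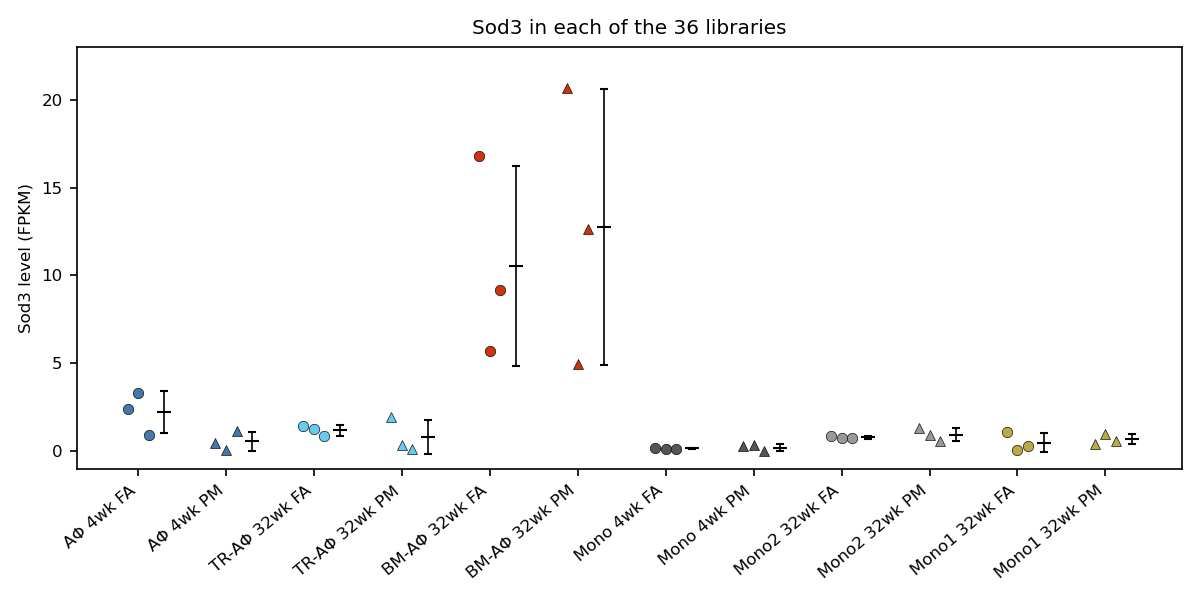
Sod3 in FPKM (y axis, linear) for each of 36 libraries by group (x axis), with the mean and SD of each group of 3 libraries drawn beside the points. The 6 BM-AΦ libraries sit between 4.98 and 20.7 FPKM and the other 30 libraries between 0 and 3.33 FPKM.

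In monocytes Sod3 was near the floor of the table. At 4-weeks it was 0.152, 0.138 and 0.140 FPKM with FA and 0.258, 0.331 and 0 FPKM with PM2.5, the last a value listed at 0. At 32-weeks CD45.1 monocytes had 1.07, 0.0785 and 0.292 FPKM with FA and 0.422, 0.985 and 0.584 FPKM with PM2.5, and CD45.2 monocytes had 0.860, 0.722 and 0.746 FPKM with FA and 1.33, 0.902 and 0.571 FPKM with PM2.5. All 6 CD45.2 libraries of 32-weeks were above all 6 of 4-weeks (exact permutation p = 0.00216), and CD45.1 and CD45.2 monocytes of 32-weeks overlapped (exact permutation p = 0.152). With a mean under 1 FPKM, Sod3 was outside the genes fitted among monocytes alone.

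Whether the difference of Sod3 between AΦ and monocytes depended on origin was tested as an interaction. AΦ minus monocytes was a log2 fold change of 2.89 (SE 0.286, adjusted p = 2.79e-09 by limma) for CD45.1 cells of 32-weeks and 0.03 (adjusted p = 0.964) for CD45.2 cells. Their difference was 2.86 (SE 0.405, 95% interval 2.03 to 3.69, adjusted p = 2.34e-04), in a test that 1.08% of 13307 genes passed and 1 of the 10 members. It passed without any 1 of 24 libraries and with the block. Sod3 reached the filter of 1 FPKM in this fit only through BM-AΦ, since its mean over the other 30 libraries was 0.792 FPKM, and with no filter on low values the adjusted p was 4.2e-04.

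Genes whose level followed Sod3 most closely were sought by Pearson correlation of log2(FPKM + 1) over the 36 libraries and 13307 genes, as a description only, since these libraries share groups and the 6 BM-AΦ libraries carry most of the variation. Among the 5 closest were Espl1, the separase of sister chromatids (r = 0.85), Cspg4, a chondroitin sulfate proteoglycan (r = 0.79), Apbb2, an adaptor that binds amyloid precursor protein (r = 0.76), and Dbi, the acyl-CoA binding protein (r = 0.73). Dbi was 194 to 234 FPKM in BM-AΦ and 49.0 to 150 FPKM in all other libraries, without overlap. Espl1, at 3.77 to 6.37 FPKM in BM-AΦ and 0.608 to 3.82 FPKM elsewhere, overlapped in its extremes.

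Sod2 was lower at 32-weeks than at 4-weeks in TR-AΦ, with no overlap. In TR-AΦ of 4-weeks it was 45.9, 61.2 and 66.3 FPKM with FA and 45.5, 53.3 and 69.6 FPKM with PM2.5. At 32-weeks it was 25.9, 26.5 and 29.8 FPKM with FA and 20.4, 26.1 and 30.5 FPKM with PM2.5. All 12 libraries separated by time whatever the exposure, and BM-AΦ of 32-weeks, at 23.2 to 34.8 FPKM, lay with the resident cells of 32-weeks.

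The mean of Sod2 fell from 57.0 ± 10.3 to 26.5 ± 3.59 FPKM in TR-AΦ (SD, n = 6), a log2 fold change of -1.07 (SE 0.14, 95% interval -1.37 to -0.77, adjusted p = 4.96e-04 by limma; exact permutation p = 0.00216, the smallest possible). Of 12665 genes 5.91% passed this comparison (2.56% higher and 3.35% lower at 32-weeks, as shares of all genes tested), and 3.86% did not overlap. Sod2 was 1 of the 10 members to pass, and it passed in all 5 other settings without a block and with any 1 library left out (-1.14 to -0.98). Of the genes called, 43.3% were higher at 32-weeks, and 18.4% after rescaling each library to the same sum (TPM, transcripts as shares of the total). Sod2 was highest in the library numbered 2 and lowest in that numbered 0 in 4 of 4 TR-AΦ groups. Exposure length, age and any difference in handling between the time points cannot be told apart.

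CD45.2 monocytes showed the same direction. Sod2 was 58.1, 91.1 and 111 FPKM with FA and 45.4, 59.5 and 118 FPKM with PM2.5 at 4-weeks, and 33.7, 25.0 and 41.6 FPKM with FA and 24.5, 31.5 and 25.4 FPKM with PM2.5 at 32-weeks. No library of 32-weeks reached the lowest of 4-weeks. The log2 fold change was -1.32 (SE 0.243, adjusted p = 0.00236 by limma). The 2 highest values at 4-weeks came from the libraries numbered 2, in which 7 neutrophil markers summed to 328 and 1011 FPKM against 23.3 to 51.2 FPKM in the other 4, and without these libraries the change was -1.03 (adjusted p = 0.0117).

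Prdx6, Gpx1 and Prdx5 also fell with time in CD45.2 monocytes. With Sod2 these were 4 of the 9 members tested, in a comparison that 14.9% of 12856 genes passed (7.06% higher and 7.83% lower) and in which 7.72% did not overlap. The median log2 fold change of the 9 members was -0.29, and that of all genes -0.05.

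Prdx6, a peroxiredoxin with a single reactive cysteine that also acts on phospholipids, was 79.8, 94.2 and 96.8 FPKM with FA and 97.3, 100.2 and 102.6 FPKM with PM2.5 at 4-weeks. At 32-weeks it was 48.9, 39.5 and 82.5 FPKM with FA and 50.6, 36.2 and 44.5 FPKM with PM2.5, so that 5 of these 6 libraries were below all of 4-weeks. The log2 fold change was -0.95 (SE 0.193, adjusted p = 0.00436 by limma), and it passed with any 1 library left out. Gpx1, the main cytosolic glutathione peroxidase, was 1064 to 1487 FPKM at 4-weeks and 447 to 1100 FPKM at 32-weeks, a log2 fold change of -0.80 (SE 0.214, adjusted p = 0.0206). Prdx5, found in mitochondria and peroxisomes, was 148 to 200 FPKM at 4-weeks and 76.2 to 139 FPKM at 32-weeks, without overlap, a log2 fold change of -0.63 (SE 0.166, adjusted p = 0.02).

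The falls of Gpx1 and Prdx5 in CD45.2 monocytes were less stable than those of Sod2 and Prdx6. Gpx1 missed the threshold without the library numbered 2 of 4-weeks FA (adjusted p = 0.0519 by limma) or of 4-weeks PM2.5 (0.0518) or that numbered 1 of 32-weeks PM2.5 (0.0575), and Prdx5 without the library numbered 2 of 4-weeks FA (0.0547) or that numbered 0 of 32-weeks FA (0.0506). Without both 4-week libraries rich in neutrophil markers, Gpx1 had an adjusted p of 0.104 and Prdx5 of 0.102, and Prdx6 still passed at -0.92 (adjusted p = 0.0267). After rescaling to TPM, when 67.7% of the genes called were higher at 32-weeks against 47.4% as fitted, Gpx1 (0.114) and Prdx5 (0.113) missed the threshold too. The interstitial macrophage markers summed to 106 to 589 FPKM in monocytes of 4-weeks and to 1006 to 3827 FPKM in CD45.2 monocytes of 32-weeks, and the part of this in the falls was not tested.

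In TR-AΦ the same 3 genes did not pass, and their log2 fold changes with time were 0.09 for Gpx1 (95% interval -0.14 to 0.33), 0.12 for Prdx5 (-0.13 to 0.36) and 0.11 for Prdx6 (-0.21 to 0.43). The difference between AΦ and monocytes in their change with time was tested as an interaction, which 7.88% of 13307 genes and 3 of the 10 members passed. It was 1.06 for Prdx6 (SE 0.245, adjusted p = 0.00613 by limma), 0.90 for Gpx1 (SE 0.238, adjusted p = 0.0177) and 0.74 for Prdx5 (SE 0.198, adjusted p = 0.0179). Without the 2 libraries rich in neutrophil markers Prdx6 alone passed (1.03, adjusted p = 0.0225), and Gpx1 (0.0706) and Prdx5 (0.0715) did not. Of the genes called, 44.8% had a positive interaction, and 23.2% after rescaling to TPM. Txn1, at 0.57 (adjusted p = 0.155), passed only with the replicate number as a block (0.0271). For Sod2 the interaction was 0.25 (95% interval -0.33 to 0.84, adjusted p = 0.677).

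**Figure D3:**
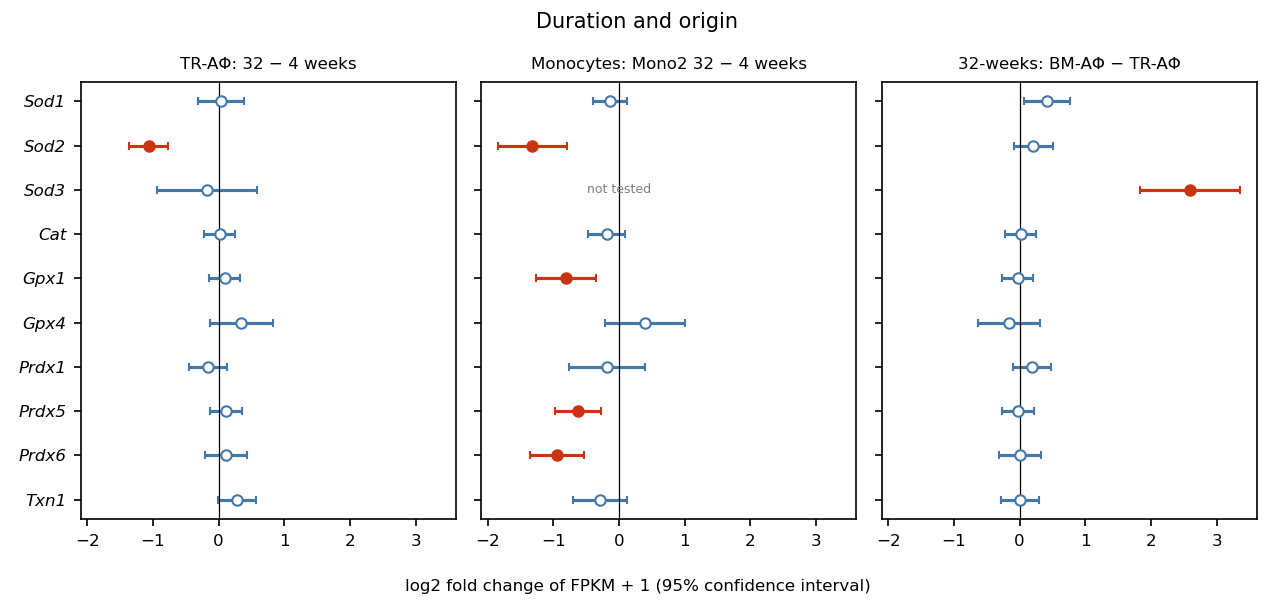
Log2 fold change of FPKM + 1 with its 95% confidence interval (x axis) for the 10 genes (y axis), for 32-weeks against 4-weeks in TR-AΦ (left) and in CD45.2 monocytes, Mono2 (middle), and for BM-AΦ against TR-AΦ at 32-weeks (right). Filled red points passed an adjusted p of 0.05 by limma. Sod2 is to the left of 0 in both time panels, at -1.07 and -1.32, and Sod3 stands apart at 2.59 on the right.

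AΦ and monocytes differed in 5 to 8 of the 10 members, in both directions. Txn1, Prdx1 and Cat were higher in AΦ and Sod1 and Prdx6 higher in monocytes at 4-weeks, in CD45.2 cells of 32-weeks and in CD45.1 cells of 32-weeks, without overlap in any of these. At 4-weeks 8 of 10 members passed (4 higher and 4 lower in AΦ, and 6 by TPM or by quantile normalization, where Gpx1 and Prdx5 missed the threshold), in CD45.2 cells of 32-weeks 5 (3 higher and 2 lower) and in CD45.1 cells of 32-weeks 6 (4 higher and 2 lower). The counts at 4-weeks and in CD45.1 cells include Sod3, which entered the fit of 36 libraries only through BM-AΦ. With only the groups compared, 7 members passed at 4-weeks, where Sod3 was not fitted, and 6 in CD45.1 cells. Many genes differ between these cells, however: the shares passing among 13307 genes were 48.2% (22.6% higher in AΦ and 25.5% lower), 47.3% (23.6% and 23.7%) and 50.9% (27.1% and 23.8%), and the shares without overlap 29.8%, 26.9% and 30.8%. The median log2 fold change of the members was -0.02, 0.10 and 0.30 in turn, and of all genes -0.02, 0 and 0.03.

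Txn1, the thioredoxin of the cytosol, was 99.9 to 155 FPKM in TR-AΦ of 4-weeks, 126 to 148 FPKM in TR-AΦ of 32-weeks and 113 to 184 FPKM in BM-AΦ. In monocytes it never exceeded 58.0 FPKM, and its lowest value was 24.8 FPKM. The log2 fold changes were 1.31 at 4-weeks (SE 0.167, adjusted p = 1.98e-07 by limma), 1.88 in CD45.2 cells (SE 0.167, adjusted p = 3.27e-10) and 1.88 in CD45.1 cells (SE 0.167, adjusted p = 3.41e-10). Prdx1, a peroxiredoxin that Txn1 reduces, was 48.9 to 83.1 FPKM in AΦ and 14.5 to 38.2 FPKM in monocytes, with log2 fold changes of 0.99, 1.01 and 1.33. Cat was 45.1 to 68.1 FPKM in AΦ and 24.5 to 46.7 FPKM in monocytes, with log2 fold changes of 0.47, 0.67 and 0.85, so that 1 AΦ library of 32-weeks lay within the range of 4-week monocytes although no comparison at 1 time point overlapped.

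Prdx6 was 17.9 to 33.4 FPKM in AΦ and 36.2 to 103 FPKM in monocytes. Its log2 fold changes of AΦ against monocytes were -2.01 at 4-weeks (SE 0.174, adjusted p = 1.81e-10 by limma), -0.94 in CD45.2 cells of 32-weeks (adjusted p = 5.4e-05) and -1.32 in CD45.1 cells of 32-weeks (adjusted p = 3.89e-07). Sod1 was 13 to 29.9 FPKM in AΦ and 29.0 to 48.4 FPKM in monocytes, with log2 fold changes of -1.07 (adjusted p = 4.45e-07), -0.89 (adjusted p = 8.23e-06) and -0.59 (adjusted p = 0.00107). Its values include any reads shared with Gm8566, given above. The sum of FPKM over all genes was higher in monocytes, and rescaling to TPM moved the median of all genes by 0.19, 0.11 and 0.26 in these 3 comparisons and the share of calls that were higher in AΦ from 47.0% to 66.6%, from 49.9% to 61.6% and from 53.2% to 74.7%. On that scale Sod1 of CD45.1 cells was -0.20 (adjusted p = 0.347), while Prdx6, Txn1, Prdx1 and Cat passed with the same directions in all 3 comparisons.

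**Figure D4:**
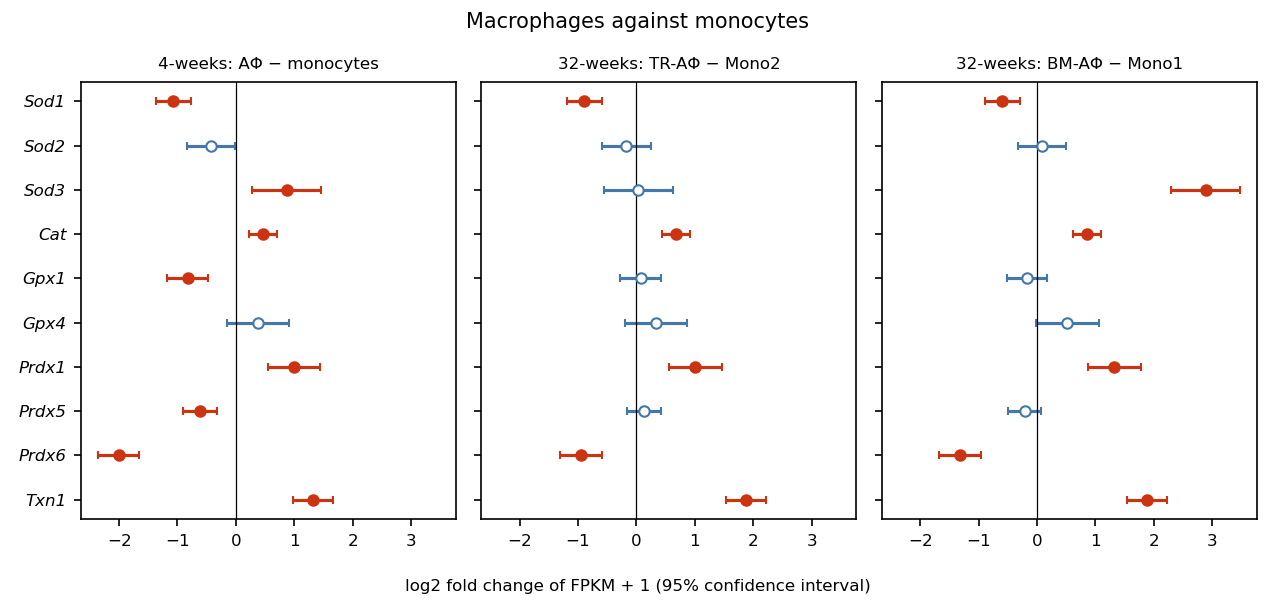
Log2 fold change of FPKM + 1 with its 95% confidence interval (x axis) of AΦ against monocytes for the 10 genes (y axis) at 4-weeks, in CD45.2 cells of 32-weeks (TR-AΦ and Mono2) and in CD45.1 cells of 32-weeks (BM-AΦ and Mono1). Filled red points passed an adjusted p of 0.05 by limma. Txn1, Prdx1 and Cat lie to the right and Sod1 and Prdx6 to the left in each panel, and Sod3 moves from 0.03 in the middle panel to 2.89 on the right.

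The other 5 members passed in at most 2 of the 3 comparisons. Gpx1 and Prdx5 were lower in AΦ at 4-weeks, with log2 fold changes of -0.83 (adjusted p = 1.83e-04 by limma) and -0.61 (adjusted p = 6.12e-04), without overlap. They did not pass at 32-weeks, nor at 4-weeks after rescaling to TPM (0.0544 and 0.181). Sod3 was higher in AΦ at 4-weeks, 0.87 (SE 0.286, adjusted p = 0.0134), from TR-AΦ values of 2.40, 3.33 and 0.927 FPKM with FA and 0.447, 0.0729 and 1.11 FPKM with PM2.5 that overlapped those of monocytes. The means, 1.38 and 0.170 FPKM, show that Sod3 entered this test through BM-AΦ of 32-weeks: it was not fitted with only the groups compared, and with no filter the adjusted p was 0.0232. Sod2 at 4-weeks was -0.42 (adjusted p = 0.0858), and passed without the library numbered 0 of FA monocytes (0.0277) or of PM2.5 monocytes (0.021) and with the replicate number as a block (0.0118). Gpx4, the peroxidase of lipid hydroperoxides, did not pass in any, at 0.38, 0.34 and 0.52 (adjusted p = 0.233, 0.295 and 0.0957), and in CD45.1 cells it passed without the PM2.5 library numbered 2 of BM-AΦ (0.0468) or of CD45.1 monocytes (0.0038).

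Promoters are shown of Txn1, Prdx1, Cat and Sod1, which separated AΦ from monocytes, and of Sod2, which separated the times. They are the 250 bases before the start of transcription, 5′ to 3′ on the strand of the gene. They come from RefSeq on GRCm38.p6, whose starts can differ from those in the files. Of the 10 members 8 matched an entry, and Sod3 and Prdx6 did not. Capitals mark matches on either strand to TGACNNNGC (antioxidant response element, the site of NRF2), TGANTCA (AP-1) or the NF-kappa B decamer, and GAGGAAGT (PU.1) was searched as well. The first 3 promoters belong to the genes higher in AΦ, the fourth to Sod1 and the last to Sod2.
Txn1 (chr4:57956412-57956661, - strand): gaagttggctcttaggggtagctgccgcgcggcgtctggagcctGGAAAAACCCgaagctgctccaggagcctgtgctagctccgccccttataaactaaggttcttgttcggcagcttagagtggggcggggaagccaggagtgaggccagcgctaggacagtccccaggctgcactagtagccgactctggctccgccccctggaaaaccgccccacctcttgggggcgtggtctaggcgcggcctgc
Prdx1 (chr4:116685349-116685598, + strand): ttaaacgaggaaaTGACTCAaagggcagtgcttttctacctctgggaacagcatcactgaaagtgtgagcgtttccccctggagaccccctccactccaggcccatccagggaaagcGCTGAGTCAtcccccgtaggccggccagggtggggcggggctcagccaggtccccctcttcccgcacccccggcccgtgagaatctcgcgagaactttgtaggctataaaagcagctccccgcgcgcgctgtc
Cat (chr2:103485154-103485403, - strand): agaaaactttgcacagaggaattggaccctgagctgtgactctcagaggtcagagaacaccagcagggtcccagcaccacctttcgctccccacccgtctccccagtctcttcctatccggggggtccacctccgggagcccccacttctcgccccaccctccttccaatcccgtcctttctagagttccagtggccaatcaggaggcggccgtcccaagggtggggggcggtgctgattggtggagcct
Sod1 (chr16:90220512-90220761, + strand): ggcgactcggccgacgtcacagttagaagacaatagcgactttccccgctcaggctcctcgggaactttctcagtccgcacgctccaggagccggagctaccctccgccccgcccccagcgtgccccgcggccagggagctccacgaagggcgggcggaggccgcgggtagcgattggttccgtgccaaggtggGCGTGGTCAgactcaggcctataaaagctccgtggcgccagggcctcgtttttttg
Sod2 (chr17:13007589-13007838, + strand): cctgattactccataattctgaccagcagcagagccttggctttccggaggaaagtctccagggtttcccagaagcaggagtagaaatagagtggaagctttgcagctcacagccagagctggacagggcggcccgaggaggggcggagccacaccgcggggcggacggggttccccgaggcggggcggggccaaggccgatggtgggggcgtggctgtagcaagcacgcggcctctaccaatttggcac
Prdx1 held 1 match to TGACNNNGC and 2 to TGANTCA, of which 1 overlaps it, Sod1 held 1 match to TGACNNNGC and Txn1 held 1 to the NF-kappa B decamer. In these windows Cat and Sod2, and those of Gpx1, Gpx4 and Prdx5 not printed, held 0 matches to the 4 motifs. Among 32851 promoters of this length 10.2% held TGACNNNGC, 6.75% TGANTCA, 1.41% the NF-kappa B decamer and 2.44% GAGGAAGT. The GC box GGGCGG, not capitalised, was found 4 times in each of Sod1, Sod2 and Txn1, once in Cat and Prdx1, and in 32.7% of all promoters at least once. Apart from the GC box, no motif was found in all 3 promoters of genes higher in AΦ. These matches of letters are a description of the windows.

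None of the 10 members passed the test of PM2.5 against FA in any population. Each of the 6 populations was compared between 3 PM2.5 and 3 FA mice, which made 57 member tests, since Sod3 was not fitted in monocytes. By limma 0 of 57 passed the adjusted threshold and 3 had an unadjusted p under 0.05, which is 5.26%. Of all genes 0.0079% passed in TR-AΦ of 4-weeks, 0% in TR-AΦ of 32-weeks, 0.0158% in BM-AΦ, 0.00778% in monocytes of 4-weeks and 0% in either monocyte population of 32-weeks. An unadjusted p under 0.05 was found for 2.94%, 3.13%, 2.05%, 2.12%, 4.74% and 4.25% of genes, in the order of TR-AΦ of 4-weeks and 32-weeks, BM-AΦ, and monocytes of 4-weeks, CD45.1 and CD45.2. The 95% interval lay within a log2 fold change of 1 either way in 44 of 57 tests, and in the others it reached past a change of that size.

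The 3 with an unadjusted p under 0.05 were in different genes and cells. Sod1 in TR-AΦ of 4-weeks was 20.0, 19.8 and 26.6 FPKM with FA and 16.5, 13.2 and 13.7 FPKM with PM2.5, all lower, a log2 fold change of -0.57 (95% interval -1.07 to -0.07, adjusted p = 1 by limma). Gpx4 in CD45.2 monocytes of 32-weeks was 2.12, 2.25 and 1.19 FPKM with FA and 6.19, 3.84 and 5.37 FPKM with PM2.5, all higher, a log2 fold change of 1.11 (95% interval 0.25 to 1.97, adjusted p = 1). Gpx1 in CD45.1 monocytes of 32-weeks was 1049, 642 and 445 FPKM with FA and 1026, 873 and 1307 FPKM with PM2.5, which overlap (0.65, adjusted p = 0.946). Groups did not overlap in 3 of 60 comparisons, the first 2 of these and Prdx6 in monocytes of 4-weeks, against 5.82%, 5.98%, 6.44%, 6.57%, 8.89% and 6.39% of genes in the populations in the order above. For 3 mice against 3 the exact permutation test cannot go below p = 0.1, which it gave for these.

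Sod3 had the widest intervals. The change with PM2.5 was -1.04 (95% interval -2.11 to 0.04, adjusted p = 1 by limma) in TR-AΦ of 4-weeks, -0.40 (-1.47 to 0.68) in TR-AΦ of 32-weeks and 0.19 (-0.89 to 1.26) in BM-AΦ. Averaged over the 6 populations the members' changes with PM2.5 ranged from -0.16 for Sod2 to 0.22 for Gpx4, the lowest adjusted p was 0.955 with all 36 libraries taken as independent, 0 of 10 had an unadjusted p under 0.05, and no interval reached beyond -0.49 or 0.53. This comparison was passed by 0.00751% of genes, and 4.92% had an unadjusted p under 0.05. The change with PM2.5 did not differ detectably between TR-AΦ of 4-weeks and 32-weeks, or between BM-AΦ and TR-AΦ, with 0 of 10 members at an adjusted or an unadjusted p under 0.05 by limma in either interaction, where 3% and 1.89% of genes had an unadjusted p under 0.05.

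**Figure D5:**
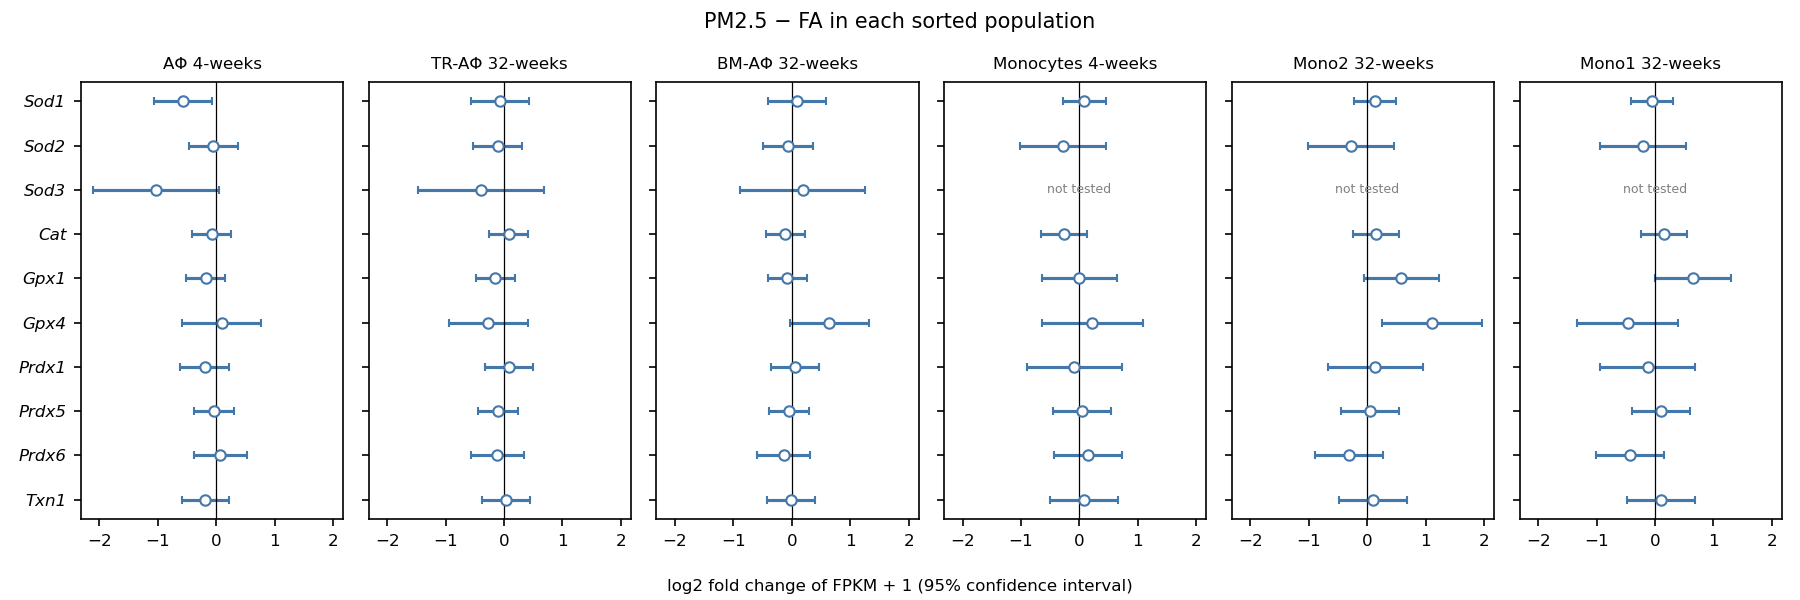
Log2 fold change of FPKM + 1 for PM2.5 against FA with its 95% confidence interval (x axis) for the 10 genes (y axis) in each of the 6 sorted populations, 3 mice per exposure. All points are open, since 0 of 57 passed an adjusted p of 0.05 by limma, and Sod3 was not tested in monocytes.

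CD45.1 and CD45.2 monocytes of 32-weeks did not differ detectably in the set. By limma 0 of 9 members passed, 0 had an unadjusted p under 0.05 and the lowest adjusted p was 0.578, for Prdx6, at 66.1 ± 20.8 and 50.4 ± 16.7 FPKM (SD, n = 6). Of 12856 genes 0.669% passed, 9.59% had an unadjusted p under 0.05 and 1.18% did not overlap.

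Other genes of the same chemistry were counted in 4 lists, of which 15 of 16 other peroxidase and thioredoxin genes, 12 of 19 other glutathione genes, 6 of 8 genes of copper and manganese delivery and 8 of 9 genes of NADPH supply were fitted with AΦ (at 1 FPKM or more on average). At 4-weeks AΦ were higher than monocytes in 3 and lower in 1 of the peroxidase and thioredoxin genes, higher in 4 and lower in 4 of the glutathione genes, higher in 2 and lower in 3 of the metal genes, and higher in 3 and lower in 1 of the NADPH genes, where 22.6% of all genes were higher and 25.5% lower. Mgst3, a microsomal glutathione transferase, was 29.9 to 53.0 FPKM in AΦ against 1.12 to 3.57 FPKM, a log2 fold change of 3.74 (adjusted p = 3.69e-13 by limma). Slc39a14, a transporter of zinc, iron and manganese, was higher by 2.11, Txnip, which binds and restrains thioredoxin, by 1.55, Idh2, the mitochondrial NADP isocitrate dehydrogenase, by 1.36, Gclm, the modifier subunit of glutathione synthesis, by 0.94, Nnt by 0.88 and Slc31a2 by 0.55. Slc31a1, the copper importer that supplies the copper dismutases, had a log2 fold change of -1.64, the cystine importer Slc7a11 of -1.58, glutathione reductase Gsr of -1.52, at 59.4 to 78.2 FPKM against 183 to 229 FPKM, G6pdx of -0.84 and the copper pump Atp7a of -0.83. Prdx4, at 0.69, missed the threshold without the 4-week monocyte libraries rich in neutrophil markers (adjusted p = 0.0901), and Sesn2, at -0.62, after rescaling to TPM (0.11). Medians of the 4 lists were 0.13, -0.15, -0.23 and 0.23, against -0.02 for all genes.

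In CD45.2 cells of 32-weeks the counts were 4 higher and 1 lower, 5 and 3, 2 and 2, and 5 and 0, beside 23.6% higher and 23.7% lower of all genes, with list medians of 0.21, 0.22, -0.05 and 0.51 against 0 for all genes. In CD45.1 cells they were 7 and 1, 5 and 4, 2 and 3, and 5 and 0, beside 27.1% and 23.8%. Mgst3 (2.97), Slc39a14 (1.84), Txnip (1.60), Slc31a2 (0.90), Slc31a1 (-1.23) and Slc7a11 (-1.66) passed in the direction they had at 4-weeks. They were joined by Gstm1, a cytosolic glutathione transferase (1.57), Idh1 (1.07), the pentose phosphate enzyme Pgd (0.92) and the methionine sulfoxide reductase Msrb1 (0.92), which were higher in AΦ. Gpx3, the secreted glutathione peroxidase, was lower in AΦ, at 0.242 to 3.04 FPKM against 6.66 to 18.7 FPKM (-2.12, adjusted p = 2.87e-07 by limma), as was Sesn1 (-1.65). The copper chaperone Atox1 was also lower (-0.59), and not after rescaling to TPM (adjusted p = 0.0907).

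In TR-AΦ, Txnrd1 and Srxn1 of the peroxidase and thioredoxin list were lower at 32-weeks, as Sod2 was. Txnrd1, the cytosolic thioredoxin reductase, was 57.5 to 74.6 FPKM at 4-weeks and 31.0 to 55.1 FPKM at 32-weeks, a log2 fold change of -0.72 (adjusted p = 0.0104 by limma). Srxn1, which restores overoxidised peroxiredoxins, was 29.9 to 43.9 and 14.5 to 29.2 FPKM, a log2 fold change of -0.79 (adjusted p = 0.0157). Neither overlapped between the times, and both passed with any 1 library left out. Gsr was higher at 32-weeks, 88.0 to 129 against 59.4 to 78.2 FPKM (0.57, adjusted p = 0.00795), although not after rescaling to TPM (0.0982). Slc7a11 (-2.01, adjusted p = 0.0371), Sesn2 (0.62, adjusted p = 0.0438) and Pgd (0.43, adjusted p = 0.0383) kept their call in only 2, 2 and 3 of 12 fits that each left out 1 library. In all, 3 genes were higher and 3 lower of the 41 tested in the 4 lists, in a comparison that 5.91% of all genes passed (2.56% higher). List medians were 0.20, 0.27, 0.08 and 0.18, against 0.03 for all genes.

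With time in CD45.2 monocytes 2 of 16 fitted peroxidase and thioredoxin genes were higher at 32-weeks and 1 lower, 3 and 1 of the 12 glutathione genes, 0 of the 6 metal genes and 1 and 1 of the 8 NADPH genes, where 7.06% of all genes were higher and 7.83% lower, with medians of 0.14, -0.27, -0.13 and -0.27 against -0.05 for all genes. Between BM-AΦ and TR-AΦ, where Sod3 differed, 0 of these 41 genes passed by limma and 1 had an unadjusted p under 0.05 (2.44%), and list medians were 0.08, -0.09, 0.09 and -0.03 against 0.02 for all genes. In the PM2.5 comparisons 0 of 249 tests of the 4 lists passed over the 6 populations, and 4 had an unadjusted p under 0.05 (1.61%).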

How the data were processed

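RNA of sorted lung AΦ and monocytes was made into 36 libraries with a stranded SMART-Seq kit. Per the labels and the study's methods, the authors trimmed reads, aligned them to mm10 with STAR guided by GENCODE, and deposited FPKM per gene from Cufflinks and Cuffdiff. No counts were analysed, and the reads behind a value are unknown. Values of 0 can be failed estimates.

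Groups came from the titles. The log2 values, log2(FPKM + 1), were fitted by limma (version 3.58.1, R version 4.3.3), with 1 mean per group and variance moderated with a trend, over genes of at least 1 FPKM on average in the 18 AΦ, 18 monocyte or all 36 libraries (12665, 12856 and 13307 genes), and Benjamini-Hochberg adjustment at 0.05. Fold changes on this scale understate changes of low genes. The study's own test ran on reads, which FPKM do not allow. Exact two-sided permutation tests used the means of log2(FPKM + 1) in Python 3.11.15. Libraries were treated as independent and unpaired, although populations of the same exposure and time can share mice, and p-values measure the spread between libraries. The procedure was tested on simulated data.

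The members and lists were chosen with earlier results of these data known. Of the 4 pathway lists, up to 2 genes per list and direction with the largest change past the threshold were named, for AΦ against monocytes at 4-weeks and in CD45.2 cells, 32-weeks against 4-weeks in TR-AΦ and BM-AΦ against TR-AΦ, and the 5 genes most correlated with Sod3, of which 1 is not reported here. Coordinates are 1-based in mm10. Alternatives were a pseudocount of 0.1, no filter, TPM, quantile normalization, only the groups compared, a replicate block and leaving out each library. Figures used matplotlib 3.10.9.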

Additional observations from a re-analysis of the deposited data

Results flagged for a closer look

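In 4 results the difference between AΦ and monocytes changed with time or with origin, by a test of that change itself. For Prdx6, Gpx1 and Prdx5 the log2 fold change of AΦ against monocytes was higher in CD45.2 cells of 32-weeks than at 4-weeks, by 1.06, 0.90 and 0.74. Their adjusted p by limma were 0.00613, 0.0177 and 0.0179, and 7.88% of all genes passed the same test. Gpx1 and Prdx5 missed the threshold without both 4-week monocyte libraries rich in neutrophil markers (0.0706 and 0.0715), by TPM (0.168 and 0.192) and by quantile normalization (0.122 and 0.293). For Sod3 the log2 fold change was higher in CD45.1 than in CD45.2 cells of 32-weeks by 2.86 (adjusted p = 2.34e-04), where 1.08% of genes passed. Sod3 entered this test through its level in BM-AΦ, and with no filter on low values the adjusted p was 4.2e-04. Groups of 3 libraries were not tested for outliers.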

How the results depend on the processing

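Of 3342 values of the 10 genes under the alternatives, 3312 kept their side of the threshold, 23 missed a threshold they had passed, 7 newly passed one and 0 called values changed sign. Of the 3312, only 563 were past the threshold in both fits, and the rest were past it in neither. Among values not past it, 240 changed sign. The falls of Sod2 and Prdx6 and the excess of Sod3 in BM-AΦ passed in every alternative but the block below, and so did Txn1, Prdx1, Cat and Prdx6 between AΦ and monocytes. Reads per value are unknown, so low genes such as Sod3 in monocytes and Gpx4 have an unknown counting error. Rescaling to TPM moved the median of all genes by over 0.1 in the comparisons of AΦ with monocytes, between monocytes of 32-weeks (-0.11), for PM2.5 in monocytes of 4-weeks (0.13) and in the interaction with origin (0.14).

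Counts of genes past the threshold moved by over 1.5 times as follows, and the cause was not tested. For 32-weeks against 4-weeks in TR-AΦ, 748 became 331 by TPM, 378 with only the groups compared (fewer libraries) and 416 to 909 without 1 library. For BM-AΦ against TR-AΦ, 40 became 62 without the filter, 78 with only the groups compared, 15 to 54 without 1 library, and 22 without both FA libraries numbered 0 of 32-week AΦ. For CD45.1 against CD45.2 monocytes, 86 became 149 without the filter and 45 to 152 without 1 library. For the interaction with origin, 144 became 96 to 223 without 1 library and 73 without those FA libraries. For time in CD45.2 monocytes, 1914 became 1156 without both 4-week libraries numbered 2, and the members passing went from 4 to 2 by TPM, by quantile normalization and without these libraries, and to 2 to 4 without 1 library. For the interaction with time, members passing went from 3 to 1 by TPM, by quantile normalization and without these libraries. The libraries left out in pairs were chosen after the data were seen.

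For PM2.5 against FA the counts were small throughout, and 0 members passed in any alternative. In TR-AΦ of 4-weeks 1 gene became 9 without the filter, 3 with only the groups compared and 1 to 5 without 1 library, in TR-AΦ of 32-weeks 0 became 1 with only the groups compared and 0 to 3 without 1 library, and in BM-AΦ 2 became 7 without the filter, 8 with only the groups compared and 2 to 4 without 1 library. In monocytes of 4-weeks 1 became 2 with a pseudocount of 0.1 or no filter, 11 with only the groups compared, 4 without both libraries numbered 2 and 1 to 4 without 1 library. In CD45.1 monocytes 0 became 1 without the filter, 9 with only the groups compared and 0 to 5 without 1 library, and in CD45.2 monocytes 0 became 3 with only the groups compared and 0 to 3 without 1 library. Over all populations 1 became 2 without the filter and 1 to 2 without 1 library. The interaction with time went from 1 to 3 with only the groups compared and 1 to 4 without 1 library, and that with origin from 2 to 4 without the filter and 2 to 5 without 1 library.

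The replicate numbers were tested for pairing. Deviations from the group means correlated between same-numbered libraries of different groups at -0.102 to 0.209 (mean 0.027, over 0.1 in 16 of 198 pairs). Only 42 of these pairs also share exposure and time, and so can come from the same mouse. They correlated at -0.041 to 0.155 (mean 0.039, over 0.1 in 2). Of 36 libraries 18 correlated best with their own number. Pairs of different numbers and groups correlated at a mean of -0.013 (over 0.1 in 6 of 396). The rule used for pairing, every pair over 0.1, was not met. Since that rule asks for every single pair, missing it cannot exclude pairing. The marker sums given above nonetheless follow the number, and whether it marks an animal, a day or a sort was not tested. With the number as a block, Sod3 in BM-AΦ against TR-AΦ was 2.59 with an adjusted p of 0.0543 by limma, so that 0 members and 22 genes passed there, and Sod2 in AΦ against monocytes at 4-weeks (adjusted p = 0.0118) and Txn1 in the interaction with time (0.0271) newly passed. The counts of genes under the block were 1308 for time in TR-AΦ, 146 between monocytes of 32-weeks, 1808 for the interaction with time, 236 for that with origin and 4 for that of PM2.5 with origin. It changed no other call of a member.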
